A study of Homo sapiens with 5 samples.

Results

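ZIP is a lentivector whose hairpin is antisense to the microRNA miR-378a-3p. HL60 cells transduced with it were compared with untransduced HL60 cells. The comparison takes the libraries whose labels name ZIP or untransduced cells, 3 of the 5 libraries of the series: ZIP 1, ZIP 2 and 1 untransduced library. HL60 is an established human promyelocytic leukaemia line, here bought from ATCC, and each library was made from total RNA and counted per gene. The labels name a small RNA kit for library making, yet protein-coding genes hold 96.6% to 97.1% of the counts, and this difference could not be settled here. The ZIP cells were infected at a multiplicity of infection of 20 with polybrene at 8 µg/mL by spin transduction and then kept in puromycin at 2 µg/mL from day 3 to day 8. The untransduced cells carry no vector by their label, and no puromycin or polybrene is stated for them. The other 2 libraries hold cells with a control lentivector named SCR, described in the labels both as scramble and as empty, which had the same infection and selection. Their values are given beside those of ZIP for the genes described most fully, and not for every gene named. Both vectors also encode green fluorescent protein. The lentivector, the puromycin selection and the antisense hairpin all separate ZIP from untransduced cells, and their parts cannot be told apart in this comparison. Nothing states that ZIP 1 and ZIP 2 were separate cultures, and the spread behind the p-values is that between libraries only, possibly a technical one. The untransduced group has 1 library and was assumed to vary like the others.

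Many of the genes tested differed between ZIP and untransduced cells, but how many depended on the test used, as given below. Genes of the eosinophil, mast cell and secondary granule programmes fell, among them EPX, CLC, CPA3, CEACAM8 and LTF, and so did 23 of 24 genes of cholesterol synthesis and uptake and 76 of 77 cytosolic ribosomal protein genes. Immediate early genes such as JUN and FOS, the monocyte regulators IRF8 and KLF4, MHC class II genes and LYZ rose. The neutrophil proteases and peroxidase that define promyelocytes stayed abundant.

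Mature microRNAs of about this kind are loaded into an Argonaute protein and pair, mostly through their seed, with sites in the 3′ untranslated region (UTR) of mRNAs, which lowers the stability or translation of the mRNA. An antisense hairpin is meant to sequester the mature microRNA, so that its targets are released. miR-378a-3p is processed from an intron of PPARGC1B, which encodes a coactivator of mitochondrial genes. Promyelocytes are granulocyte precursors that fill primary granules with myeloperoxidase and serine proteases, before the secondary granules of later stages are made, and HL60 cells can be driven towards neutrophil, monocyte or eosinophil fates.

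The mature sequence of the targeted microRNA is shown with 2 relatives that share its seed and differ in the rest of the molecule, because an antisense RNA made against the first could meet all of them. Capitals mark the seed, bases 2 to 8. Sequences are from RefSeq (GRCh38.p14), where 7 mature human microRNAs carry this seed.
hsa-miR-378a-3p: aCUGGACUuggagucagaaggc
hsa-miR-378c: aCUGGACUuggagucagaagagugg
hsa-miR-422a: aCUGGACUuagggucagaaggc
The site that pairs with the seed reads AGTCCAG in DNA letters (7-base site), and the 8-base site AGTCCAGA adds an A behind it. Reported targets of the microRNA that hold the 8-base site in their 3′ UTR are shown for 3 genes, in 30 bases of the GENCODE 29 transcript (GRCh38), with the site in capitals. The GRB2 site lies at chr17:75319278-75319285, the SDAD1 site at chr4:75950650-75950657 and the TOB2 site at chr22:41433798-41433805, all on the minus strand.
GRB2: aagttaaaggcAGTCCAGAgcttttcagcc
SDAD1: ttacattaaaaAGTCCAGAcacactgtatt
TOB2: tggaaactgttAGTCCAGAatgatgtgttt

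The targeted locus could not be read in these libraries. MIR378A (chromosome 5, 149732825 to 149732890, plus strand) had 0 counts in the untransduced library, 0 in ZIP 1 and 2 in ZIP 2, all under the floor of 3 counts used here for detection, and counts at a microRNA locus need not measure the mature form. Since it is not settled whether these libraries capture small RNA, the zeros say nothing of the level of the mature microRNA. Its host gene PPARGC1B had 40.5 CPM (counts scaled to library size) in untransduced cells, 48.6 and 51.2 in SCR, and 67.5 and 67.7 in ZIP. Both ZIP libraries lay above the other 3. The log2 fold change of ZIP over untransduced was 0.74 ± 0.05 (SE; n = 2 and 1), with an edgeR quasi-likelihood adjusted p of 5.4e-11. The UTR of PPARGC1B, 7464 bases long, itself holds the site AGTCCAGA. Long genes as a class were higher in ZIP, as described below, and no value adjusted for length is given for this gene.

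Of the 3 printed sites, 2 belonged to genes that rose and 1 to a gene that fell. GRB2, an adaptor that links growth factor receptors to RAS, had 172 CPM in untransduced cells, 259 and 264 in SCR, and 280 and 275 in ZIP, which gave 0.69 ± 0.04 (SE) as log2 fold change. SDAD1, a factor of ribosome export, had 84.7 CPM in untransduced cells and 95.5 and 91.7 in ZIP (0.15 ± 0.04). TOB2, an antiproliferative regulator of mRNA deadenylation, went the other way, from 84.2 CPM to 61.1 and 60.3 (-0.47 ± 0.04). CASP9, an initiator caspase and also a holder of the site, did not pass (7.51 CPM and 7.44 and 6.57 in ZIP). The 3 printed genes thus spread over both directions within log2 values of 0.69 and -0.47.

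Of the 23 reported target genes that passed the expression filter, 14 were higher in ZIP and 6 lower, where 28.5% of all genes tested were higher and 29.7% lower. Their median log2 fold change was 0.15, against 0.00 over all genes tested. For SCR over untransduced, which shares the untransduced library, the median of the same list was 0.23. With the length adjustment 12 were higher and 8 lower in ZIP, with a median of 0.10, and DESeq2 called 8 higher. KLF9, a zinc finger factor, rose from 12.3 CPM to 32.2 and 30.5, with 35.3 and 35.7 in SCR. BMP2, a secreted growth factor with an 8-base site, had 0 counts in untransduced cells and 18 in each ZIP library, at least 5.25-fold higher. It had 99 and 93 counts in SCR. MSC, a bHLH repressor, had 0 counts in untransduced cells, 7 in each SCR library and 20 and 12 in ZIP, at least 4.66-fold higher. These bounds set the untransduced library at 3 counts and leave out counting error in ZIP. MYC fell, from 2033 CPM to 1223 and 1214 (-0.74 ± 0.02), and stood at 926 and 933 in SCR.

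Across the transcriptome, 392 of 12450 genes with an annotated 3′ UTR held the 8-base site. Of these, 43.4% were higher in ZIP and 23% lower, with a median log2 fold change of 0.18. Among the 10879 genes without a 7-base site, 30.8% were higher and 32.5% lower, with a median of -0.00. Properties of the genes moved with this difference. Genes with the 8-base site had a median UTR of 3281 bases against 1103 without a site, and long genes as a class were higher in ZIP, as described below. An adjustment of the counts for exon length was chosen after seeing the data. With it 37.5% of the 8-base genes were higher, and no such share was taken for genes without a site. The adjusted medians were 0.10 with the 8-base site and 0.03 without a site. For all 1571 genes with a 7-base site, 8-base sites included, the median was 0.10, and 0.01 with the adjustment. For SCR over untransduced, which shares the untransduced library, the unadjusted medians were 0.14 with the 8-base site and 0.02 without a site. The part of length in the difference between site classes was not tested beyond this adjustment.

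**Figure D1:**
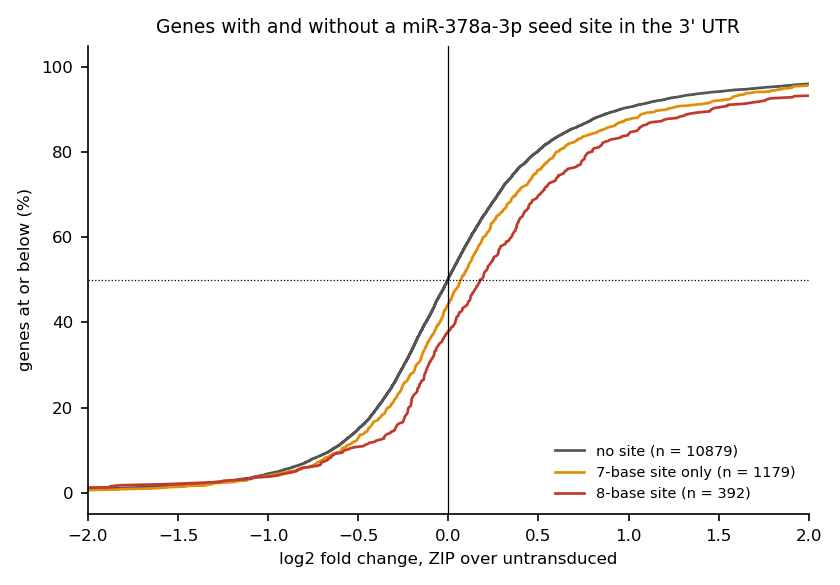
Cumulative share of genes (y axis, percent) at or below each log2 fold change of ZIP over untransduced (x axis) for 392 genes with an 8-base miR-378a-3p seed site, 1179 with a 7-base site only and 10879 without a site. The 8-base curve lies to the right of the others through the middle of the range, where its median is 0.18 against -0.00.

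The genes that act on microRNAs were also examined. Of 15 tested genes of microRNA processing and the Argonaute family, 10 were higher and 4 lower (median 0.33). AGO2, the Argonaute that can cleave its target, rose from 17.6 CPM to 56.9 and 62.6 (1.76 ± 0.08), with 33.8 and 34.6 in SCR. The UTR of AGO2, 11888 bases long, also holds the site AGTCCAGA, and no length-adjusted value is given for this gene. AGO1 rose from 40.8 CPM to 76.3 and 81 (0.95 ± 0.05). AGO4 rose from 33.7 CPM to 46.5 and 48.7, and was higher in SCR, at 88.4 and 88.3. With the length adjustment 7 members were higher and 3 lower (median 0.06), and DESeq2 called 2 lower.

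Of 15832 genes tested, 9211 (58.2%) passed, 4507 higher in ZIP (28.5%) and 4704 lower (29.7%). The shares of 28.5% and 29.7% are the background for every count of list members given in the text. Genes that passed the expression filter only through SCR are among those tested. At least 2-fold changes were less even, with 1377 genes higher (8.7%) and 822 lower (5.19%). Changes of at least 8-fold numbered 292 higher and 61 lower. DESeq2 called fewer: 3105 higher and 2851 lower, and at 2-fold 908 and 417. The libraries held 24406580 to 30925067 counts and 22066 to 23766 genes with a count. Replicates were close, with a mean chi-square per gene of 1.79 between ZIP 1 and ZIP 2, where counting noise alone gives about 1, and of 83.3 and 86.1 between the untransduced library and each ZIP library. At these depths 3 counts equal 0.0979 to 0.125 CPM per library. Floors and intervals cover counting error only.

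**Figure D2:**
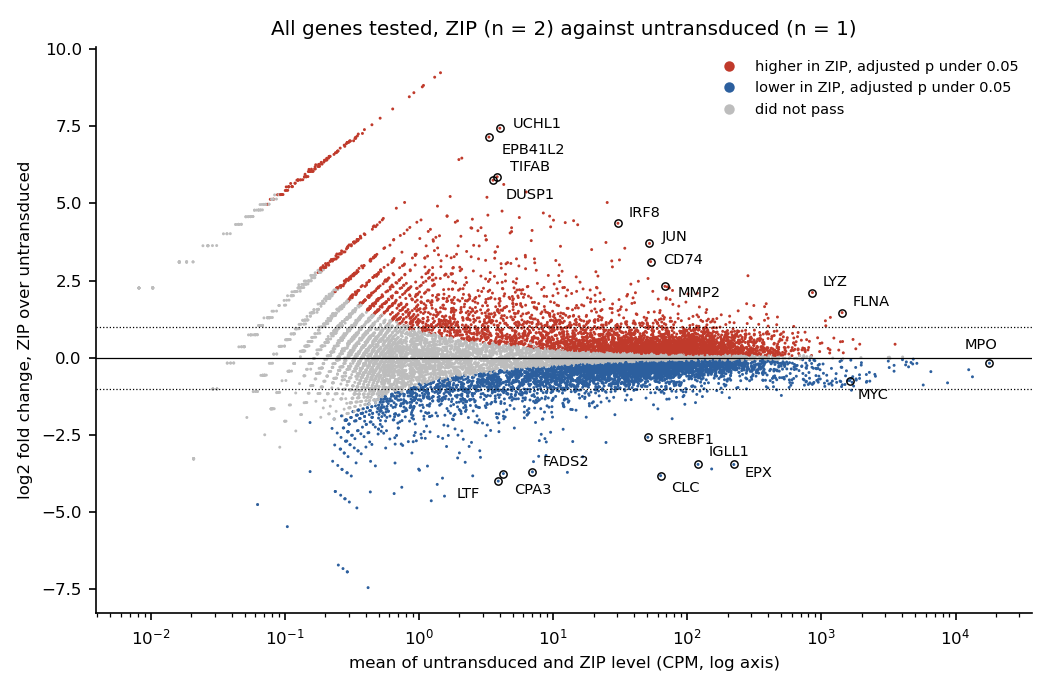
Log2 fold change of ZIP over untransduced (y axis) against the mean level of both groups (x axis, CPM on a log axis) for all 15832 genes tested, in red where higher, in blue where lower and in grey where the test was not passed. Dotted lines mark 2-fold, circles mark named genes, and the slanted band at upper left holds genes without a count in the untransduced library, whose fitted values are no bounds.

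One property of the untransduced library ran through the whole comparison: genes with longer exons had relatively fewer counts there. Over 12550 protein-coding genes split into 8 equal groups by summed exon length, the median log2 fold change went from -0.24 in the shortest group (207 to 2386 bases) to 0.38 in the longest (9822 to 118976 bases). In the shortest group 11.5% of genes were higher and 49.9% lower, and in the longest 57.9% and 12.8%. SCR over untransduced, which shares that library, went from -0.21 to 0.33. Whether RNA quality, library making or the cells set this trend was not tested. After the length adjustment 4598 genes were higher and 4023 lower, and 1332 and 570 at 2-fold. Adjusted values are given below for many lists and some genes, and not for every result that the adjustment moved.

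**Figure D3:**
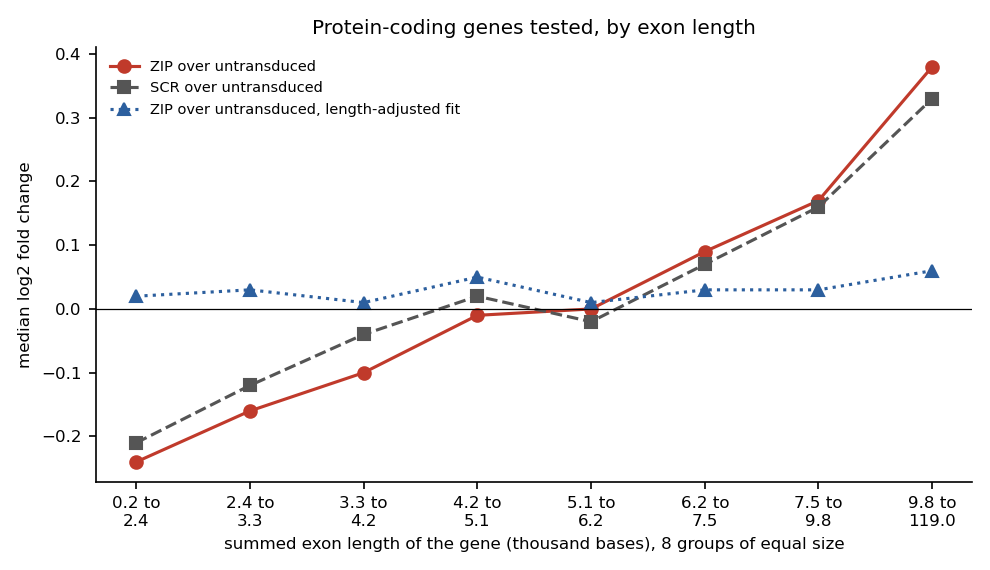
Median log2 fold change (y axis) in 8 equal groups of protein-coding genes by summed exon length (x axis, kb). ZIP over untransduced rises from -0.24 to 0.38 and SCR over untransduced from -0.21 to 0.33, while the length-adjusted medians stay between 0.01 and 0.06.

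The largest rises were in genes that the untransduced library barely held. UCHL1, a deubiquitinating enzyme known from neurons, had 1 count in untransduced cells, 20 and 15 in SCR, and 274 and 169 in ZIP, a ratio of 194 with an exact 95% interval of 34.6 to 7669. ZIP was far above both other groups. EPB41L2, a membrane skeleton protein, had 1 count in untransduced cells and 198 and 163 in ZIP, a ratio of 158 (28.2 to 6252). Its SCR counts of 679 and 708 were above those of ZIP. TIFAB, an inhibitor of TRAF6 signalling from the 5q region, had 3 counts in untransduced cells, 652 and 677 in SCR, and 236 and 178 in ZIP, a ratio of 60.3 (20.5 to 294).

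The other leading rises included genes of the cytoskeleton, its membrane anchors and lipid metabolism. TNS1 and TNS3, tensins that tie integrins to actin, rose from 0.292 to 11.6 and 13.1 CPM and from 0.626 to 15.9 and 16.6 CPM. PDLIM1, a protein of actin stress fibres, rose from 0.167 CPM to 8.33 and 8.47. DTNA, a dystrobrevin, rose from 0.751 CPM to 18.7 and 17.5, and ANXA2, an annexin, from 0.292 CPM to 7.54 and 8.51. ZIP lay between untransduced and SCR for all 5, with SCR at 27.6 and 28.6 CPM for TNS1, 40.1 and 39.7 for TNS3, 48.9 and 48.6 for PDLIM1, 63 and 58.9 for DTNA, and 33.9 and 37.2 for ANXA2. STOX2, a winged helix factor, was different. It rose from 0.25 CPM to 6.14 and 6.41 in ZIP, above the 1.58 and 1.67 CPM of SCR. LAMP5, a lysosome-associated membrane protein, rose from 1.5 CPM to 49.6 and 48.6, next to 54.5 and 52.2 in SCR.

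No count at all was found in the untransduced library for 8 genes that had at least 50 counts summed over both ZIP libraries. The converse, at least 50 counts in the untransduced library and none in either ZIP library, was found for 0 genes. The summed ZIP libraries are deeper than the single untransduced library, so the 8 and the 0 cannot be compared. Of the 8, named after their values were seen, KCNA3, a potassium channel of lymphocytes, had 69 and 50 counts in ZIP, at least 17.3-fold higher. HAND2, a bHLH factor of heart and sympathetic neurons, had 60 and 55 counts, at least 16.8-fold higher. Both were also counted in SCR, at 132 and 124 for KCNA3 and at 98 and 92 for HAND2.

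Measured in CPM gained, the leading genes included those of large cytoskeletal and nuclear proteins. FLNA, the actin crosslinker filamin A, rose from 761 CPM to 2086 and 2101, and MYH9, non-muscle myosin, from 651 to 1501 and 1483. AHNAK, a giant scaffold protein, rose from 77.7 CPM to 491 and 487. The DNA repair kinase PRKDC rose from 672 CPM to 1655 and 1670. All 4 encode large proteins, and the log2 fold change of FLNA moved from 1.46 to 1.20 with the adjustment. LYZ, which encodes lysozyme, rose from 323 CPM to 1392 and 1394, and stood at 1115 and 1121 in SCR.

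The level of the HL60 cell type itself was checked on promyelocyte markers. MPO, myeloperoxidase, had 19020 CPM in untransduced cells and 17049 and 16583 in ZIP, and 9967 and 9992 in SCR. PRTN3, proteinase 3, had 3194 CPM in untransduced cells and 3283 and 3182 in ZIP, a difference that did not pass (0.02 ± 0.02). ELANE, neutrophil elastase, had 1377 CPM and 1571 and 1503 in ZIP (0.16 ± 0.03). MYB, a progenitor factor, did not pass either, at 394 CPM and 410 and 415. These markers were abundant in all 3 libraries of the comparison.

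The 15 primary granule genes as a group moved in both directions, 6 higher and 7 lower with a median of 0.02. With the length adjustment 8 were higher and 6 lower, with a median of 0.14. CTSG, the protease cathepsin G, rose from 205 CPM to 346 and 342 (0.75 ± 0.03), while SCR stood at 76.4 and 76.3. PRSS57, another granule serine protease, fell from 35.8 CPM to 14.4 and 14.5, with 5.6 and 5.4 in SCR. BPI, a bactericidal protein that binds lipopolysaccharide, fell from 101 CPM to 39.9 and 39.6. DEFA4, a defensin, fell from 6.38 CPM to 1.31 and 1.69.

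Secondary and tertiary granule genes were mostly lower. Of 13 tested, 9 fell and 2 rose, 8 of the falls at 2-fold or more, and the median log2 fold change was -1.20. With the length adjustment 8 fell and 2 rose, with a median of -0.96. CEACAM8, an adhesion molecule of specific granules, had 23.7 CPM in untransduced cells, 0.552 and 0.428 in SCR, and 1.8 and 1.82 in ZIP, a log2 fold change of -3.71 ± 0.13 with an edgeR adjusted p of 1.9e-16. LTF, lactoferrin, had 7.34 CPM in untransduced cells, 0.552 and 0.583 in SCR, and 0.49 and 0.413 in ZIP (-4.00 ± 0.24). Both transduced groups lay far below the untransduced library. MMP8, neutrophil collagenase, fell from 2.38 CPM to 0.0979 and 0.0827 in ZIP, the latter under the 3-count level. OLFM4 and PGLYRP1 fell from 1.29 and 3.09 CPM to at most 0.196 and 0.661. One of the 2 rises was MMP9, gelatinase B, which went from 0.25 CPM to 1.27 and 1.12 and was at 19.1 and 20.4 in SCR.

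Markers of neutrophil maturation followed, with 9 of 13 lower, 0 higher and a median of -0.66. With unscaled library totals, without ZIP 2, or with the length adjustment, 1 member was higher, and the adjusted median was -0.35. S100A8, a calcium-binding alarmin, fell from 88.7 CPM to 43.9 and 39.4, where SCR had 41.7 and 43.2. S100A12 fell from 4.17 CPM to 0.62 and 0.496. The complement receptor C5AR1 fell from 2.79 CPM to 1.04 and 0.992, although SCR was higher than both, at 10.4 and 9.84. CEBPE, the transcription factor needed for secondary granules and terminal granulocyte maturation, fell from 293 CPM to 119 and 120 (-1.30 ± 0.03), and SCR stood at 119 and 116.

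The mast cell, basophil and eosinophil markers had the lowest median of the lists with more than 2 tested members, -1.86. Of 11 tested, 7 fell, all at 2-fold or more, and 0 rose. With the length adjustment 7 fell and 0 rose, with a median of -1.50. EPX, eosinophil peroxidase (chromosome 17, 58192737 to 58205174), had 408 CPM in untransduced cells, 122 and 123 in SCR, and 37.8 and 36.2 in ZIP, a log2 fold change of -3.46 ± 0.04 with an edgeR adjusted p of 1.2e-25. CLC, the Charcot-Leyden crystal galectin, had 118 CPM, then 35.3 and 34.3 in SCR and 8.65 and 8.02 in ZIP (-3.82 ± 0.06). ZIP was the lowest group for both genes. CPA3, the carboxypeptidase of mast cells, fell from 7.93 CPM to 0.555 and 0.62, with 1.22 and 1.17 in SCR. HDC, which makes histamine, fell from 2.79 CPM to 0.0653 and 0.331, and IL5RA, the eosinophil growth factor receptor, from 1.92 to 0.326 and 0.289. Summed over the 13 markers in the table, the level was 711 CPM in untransduced cells, 195 and 197 in SCR, and 112 and 108 in ZIP. In bulk RNA, fewer cells of such a kind and less RNA per cell cannot be told apart.

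GATA factors drive the mast cell and eosinophil programmes. GATA1 fell from 2.59 CPM to 0.131 and 0.165 in ZIP (-4.10 ± 0.44), and SCR had 0.315 and 0.428. GATA2 fell from 84.3 CPM to 44.9 and 43.3 (-0.93 ± 0.05), while SCR stood at 95.8 and 103. The 250 bases before the start of CLC and CPA3 are shown, since these genes fell together and both windows hold the GATA motif AGATAA, searched on both strands and marked in capitals. The windows are from RefSeq (GRCh38.p14): chr19:39738030-39738279 on the minus strand for CLC and chr3:148865046-148865295 on the plus strand for CPA3.
CLC: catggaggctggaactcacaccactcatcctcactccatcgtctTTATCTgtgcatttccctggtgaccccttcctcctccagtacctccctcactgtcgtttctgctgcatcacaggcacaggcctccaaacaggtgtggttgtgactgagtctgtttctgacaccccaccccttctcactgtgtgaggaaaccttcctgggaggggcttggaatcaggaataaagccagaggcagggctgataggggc
CPA3: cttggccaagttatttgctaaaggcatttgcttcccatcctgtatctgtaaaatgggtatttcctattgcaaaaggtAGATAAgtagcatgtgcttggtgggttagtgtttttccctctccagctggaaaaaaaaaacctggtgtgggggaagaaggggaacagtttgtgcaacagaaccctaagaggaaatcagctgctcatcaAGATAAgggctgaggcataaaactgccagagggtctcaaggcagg
The motif was found in 4 of the 9 promoters of this list that matched the RefSeq table (44.4%) and in 9.37% of 27305 promoters of the same length. It was 1 of 5 motifs searched in the promoters of 3 lists, and is shown because its share was highest in this list. In the same 9 promoters the CEBP motif TTGCNNAA was in 22.2% (9.13% of all promoters), a sterol regulatory element, TCACNCCAC, in 11.1% (0.875% of all), and the AP-1 motif TGANTCA and the CRE motif TGACGTCA in 0. The AP-1 motif was in 0 of 18 promoters of immediate early genes and in 6.6% of all. The sterol element was in 1 of 18 promoters of cholesterol genes and in 1 of 18 of immediate early genes. For the GATA motif these were 2 of 18 of cholesterol genes (11.1%) and 3 of 18 of immediate early genes (16.7%). The motifs were chosen after the values were seen, and a match describes the letters only.

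IGLL1, MZB1 and ABCA1 were among the other largest falls. IGLL1, the surrogate light chain of pre-B cells, fell from 220 CPM to 19.8 and 20.5 (-3.45 ± 0.04), with 17.2 and 17.1 in SCR. MZB1, an endoplasmic reticulum cochaperone of plasma cells, fell from 43.1 CPM to 5.97 and 6.98, with 8.51 and 8.36 in SCR. Of 5 B cell markers, CD79A, a chain of the B cell receptor complex, fell from 4.25 CPM to 1.34 and 1.45 (-1.61 ± 0.22), with 2.29 and 2.37 in SCR. The other 4 were under 1 CPM in all 3 libraries, and MS4A1 and CD79B had no count. The 5 summed to 4.63 CPM in untransduced cells and to 1.96 and 1.94 in ZIP. ABCA1, the cholesterol exporter, fell from 13 CPM to 1.21 and 1.32, although SCR was above untransduced cells, at 28.1 and 29.3. CFD, complement factor D, fell from 249 CPM to 115 and 113.

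The monocyte regulators IRF8 and KLF4 rose, and so did 7 of the 15 monocyte and macrophage markers. IRF8, a transcription factor that directs monocyte and dendritic cell fate, had 2.84 CPM in untransduced cells, 98.7 and 102 in SCR, and 59.2 and 56.9 in ZIP, a log2 fold change of 4.35 ± 0.10 with an edgeR adjusted p of 9.4e-20. KLF4, which cooperates in monocyte commitment, rose from 0.417 CPM to 6.14 and 5.75, with 8.31 and 8.9 in SCR. EGR1 rose from 1.38 CPM to 5.26 and 5.13. These genes belong to a list of 19 myeloid transcription factors that did not rise as a group. Of the 19, 6 were higher and 9 lower (median 0.05), or 8 and 8 with the length adjustment (median 0.08). Of 15 monocyte and macrophage markers tested, 7 were higher, 2 lower and 6 did not pass, with a median of 0.59, or 0.22 with the length adjustment, where 3 were lower. CSF1R, the receptor for macrophage growth factor, rose from 1.29 CPM to 7.18 and 6.9, and SCR stood at 41 and 43.9. MS4A7 rose from 0.375 CPM to 4.8 and 4.67. FCN1 and LILRB2 fell, from 5.09 CPM to 2.19 and 1.32 and from 1.42 CPM to 0.588 and 0.413. VCAN, CD163, SIGLEC1 and LILRB1 were under 1 CPM in all 3 libraries. The 15 markers summed to 42.3 CPM in untransduced cells, 327 and 338 in SCR, and 75.6 and 76 in ZIP.

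**Figure D4:**
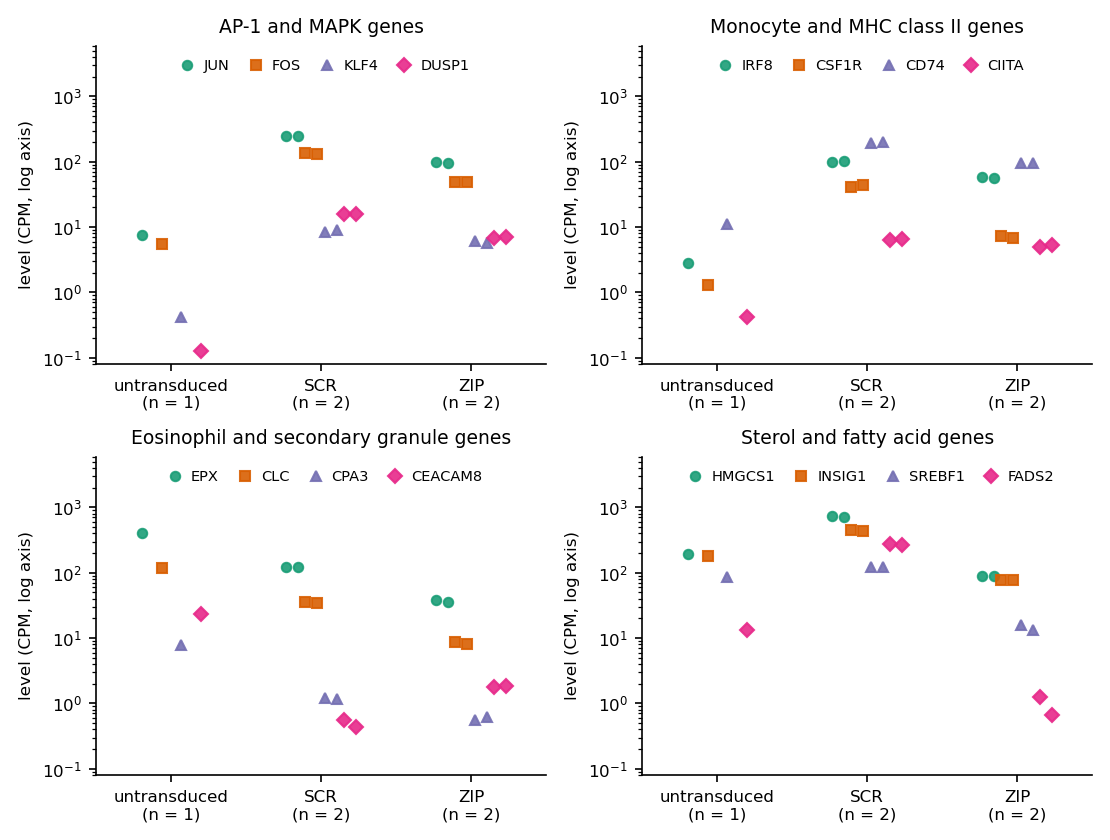
Level (y axis, CPM on a log axis) of 16 genes in each library, 1 point per library: untransduced (n = 1), SCR (n = 2) and ZIP (n = 2). JUN rises from 7.47 CPM to 99.4 and 94.9 in ZIP, EPX falls from 408 to 37.8 and 36.2, and HMGCS1 falls from 191 to 90.4 and 89.9 in ZIP while SCR rises to 728 and 714.

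MHC class II genes, which display peptides to helper T cells, rose together with their master regulator. CIITA, that regulator, had 0.417 CPM in untransduced cells, 6.34 and 6.49 in SCR, and 5.03 and 5.37 in ZIP (3.62 ± 0.29). CD74, the invariant chain, had 11.1 CPM, then 195 and 200 in SCR and 95.4 and 95.8 in ZIP (3.11 ± 0.06). HLA-DRA rose from 1.25 CPM to 9.79 and 9.92. B2M, the light chain of class I molecules, fell from 2966 CPM to 2054 and 2028. HLA genes are near-identical to one another, and how their shared reads were counted is not given. Over the 19 genes of class I and II presentation, 8 were higher and 9 lower (median -0.06). With the length adjustment 7 were higher and 6 lower (median 0.08).

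Immediate early genes, which are switched on within minutes of growth factor or stress signals, formed the list with the highest median among those with more than 4 tested members. Of 24, 17 were higher and 3 lower, 15 of the rises at 2-fold or more, with a median log2 fold change of 1.77. JUN (chromosome 1, 58780788 to 58784327), a subunit of the AP-1 transcription factor, had 7.47 CPM in untransduced cells, 250 and 250 in SCR, and 99.4 and 94.9 in ZIP, a log2 fold change of 3.70 ± 0.07 with an edgeR adjusted p of 1.9e-21. Its partner FOS had 5.59 CPM, then 135 and 131 in SCR and 49.3 and 48.9 in ZIP (3.13 ± 0.08). ZIP lay between the other groups for both genes. For FOSB and CYR61 ZIP was the highest group: FOSB rose from 1.13 CPM to 11.1 and 11.5, with 5.48 and 5.13 in SCR. CYR61, a secreted matrix protein, rose from 0.626 CPM to 6.63 and 6.86, with 1.81 and 2.41 in SCR. The 3 members that fell, named after their values were seen, were JUNB (106 CPM to 67.6 and 69.4), JUND (153 to 127 and 123) and ZFP36 (26.2 to 23.4 and 22.9). With the length adjustment 1 member was lower.

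Feedback regulators of the MAP kinase pathway moved the same way, 10 of 17 higher and 1 lower (median 0.51). Without ZIP 1, 2 members were lower. DUSP1, a phosphatase that switches off MAP kinases, had 3 counts in untransduced cells, 404 and 408 in SCR, and 210 and 173 in ZIP, a ratio of 55.8 with an exact 95% interval of 19 to 272. DUSP10 rose from 8.88 CPM to 23.3 and 21.2. The Sprouty inhibitors SPRY2 and SPRY4 rose from 44.3 CPM to 80.5 and 78.6 and from 0.959 CPM to 2.09 and 2.77.

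Of the NF-kB and inflammatory genes, some rose and some fell. Among 16 NF-kB genes 7 were higher and 3 lower (median 0.21). REL, a subunit, rose from 4.21 CPM to 13.7 and 16.1, above the 9.06 and 10.2 of SCR, and NFKBIA, the inhibitor that the pathway itself induces, from 31.6 CPM to 70.1 and 67.9. BIRC3, an antiapoptotic ubiquitin ligase, fell from 4.88 CPM to 2.51 and 2.03. Of 14 chemokines and inflammatory cytokines tested, 4 were higher and 4 lower, shares near the 28.5% and 29.7% over all genes tested. CXCL8, the neutrophil attractant interleukin 8, rose from 43.5 CPM to 152 and 152, with 591 and 574 in SCR. CCL2, the monocyte attractant, fell from 10 CPM to 2.74 and 2.77, although SCR stood at 64.5 and 64.7. ZIP thus lay between the other groups for CXCL8 and below both for CCL2.

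Interferon response genes, which restrict viruses, were higher in part. Of 39 tested, 18 were higher and 4 lower, 11 of the rises and 2 of the falls at 2-fold or more, with a median of 0.48. XAF1, a proapoptotic interferon target, had 0.542 CPM in untransduced cells, 45.7 and 44.9 in SCR, and 9.47 and 9.05 in ZIP (4.09 ± 0.23). DDX60, a helicase that promotes RNA sensing, rose from 1.21 CPM to 6.73 and 6.24, with 20.3 and 19.2 in SCR, and IFIT5 from 0.25 CPM to 2.78 and 2.31. The median of the list for SCR over untransduced was 2.70. OASL had no count in untransduced cells, 8 and 10 counts in ZIP and 209 and 169 in SCR, at least 2.62-fold higher in ZIP.

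**Figure D5:**
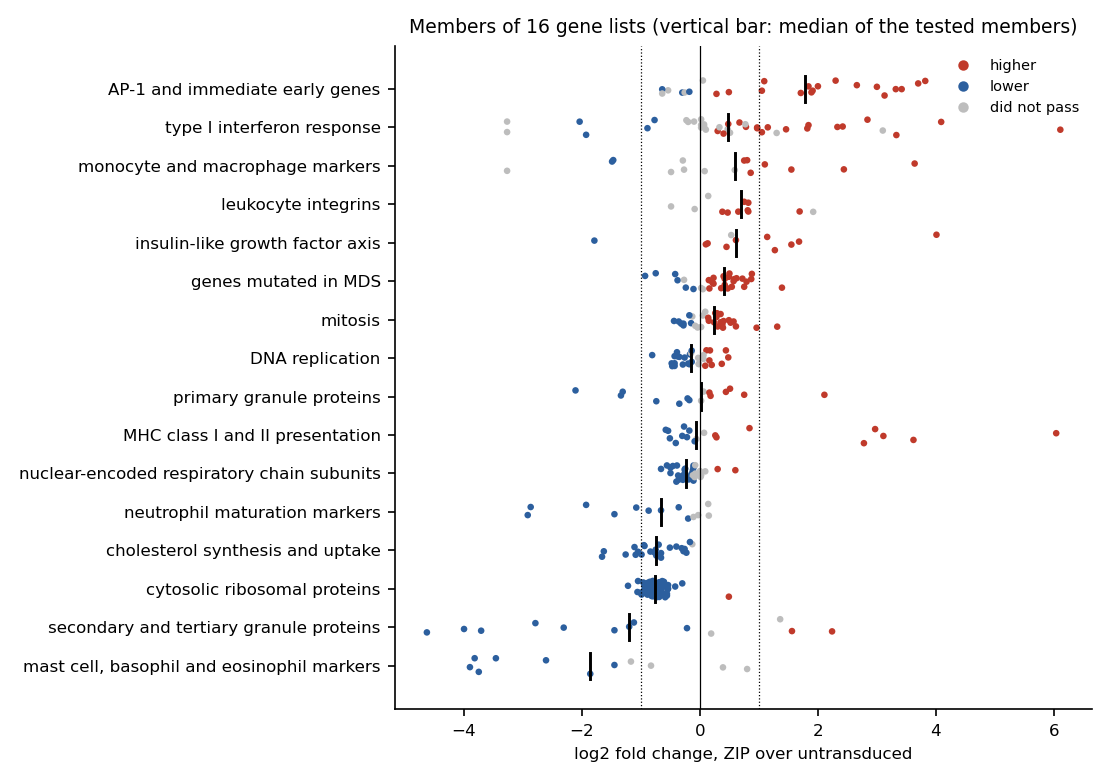
Log2 fold change of ZIP over untransduced (x axis) of every tested member of 16 gene lists (rows), red where higher, blue where lower and grey where the test was not passed, with a black bar at each list's median. The medians run from 1.77 for immediate early genes to -1.86 for mast cell, basophil and eosinophil markers, and the point at 6.11 (OASL) and that at 6.04 (HLA-DRB1) are fitted values of genes without a count in untransduced cells.

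Cholesterol synthesis was lower in ZIP than in untransduced cells at nearly every step. Of 24 genes of synthesis and uptake, 23 fell and 0 rose, 6 of them at 2-fold or more, with a median of -0.74. The exception, named after its values were seen, was the demethylase gene CYP51A1, at 3.59 CPM and 3.56 and 2.93 (-0.13 ± 0.19). HMGCS1, which makes the precursor of mevalonate, had 191 CPM in untransduced cells, 728 and 714 in SCR, and 90.4 and 89.9 in ZIP, a log2 fold change of -1.09 ± 0.03 with an edgeR adjusted p of 1.2e-17. Here the 2 transduced groups lay on opposite sides of the untransduced library. MSMO1, a sterol oxidase, fell from 91.8 CPM to 29.9 and 28.2, LSS, which closes the sterol rings, from 133 to 64.4 and 59.1, and TM7SF2, a sterol reductase, from 11 to 3.66 and 3.43. INSIG1, the feedback sensor that holds SREBP in the endoplasmic reticulum, fell from 183 CPM to 76.3 and 76.7, with 452 and 442 in SCR. The median of this list for SCR over untransduced was 0.84, and with the length adjustment 22 genes were lower in ZIP.

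Fatty acid genes did not move as a block. SREBF1, the transcription factor of fatty acid synthesis, fell from 87.1 CPM to 15.6 and 13.4 (-2.58 ± 0.06), with 124 and 122 in SCR. The desaturases of polyunsaturated fatty acids fell further. FADS2 had 13.1 CPM in untransduced cells, 271 and 262 in SCR, and 1.27 and 0.661 in ZIP (-3.70 ± 0.16), and FADS1 fell from 14.9 CPM to 2.35 and 2.52, with 326 and 335 in SCR. The elongase ELOVL6 and the malic enzyme ME1, which supplies NADPH for lipid synthesis, rose instead, from 0.876 CPM to 19.9 and 18.6 and from 0.959 CPM to 18.3 and 18.1. Over 16 tested genes 5 were higher and 8 lower, where 28.5% of all genes tested were higher and 29.7% lower. In fatty acid oxidation 10 of 20 genes were higher and 4 lower (median 0.06), but DESeq2 called 5 and 2, and 2 were lower without ZIP 2. Among those that rose was CPT1A, which admits fatty acids to mitochondria, at 266 CPM and 401 and 404 in ZIP (0.60 ± 0.03). ACAA2, a thiolase of the same pathway outside that list, rose from 1.25 CPM to 27.7 and 26.7, with 50.5 and 48.1 in SCR.

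Ribosomal protein mRNAs fell nearly without exception. Of 77 tested, 76 were lower, 1 was higher and the median was -0.76, or -0.59 with the length adjustment and 75 lower. RPLP2, a protein of the ribosomal stalk, had 2260 CPM in untransduced cells, 1187 and 1179 in SCR, and 1109 and 1071 in ZIP (-1.05 ± 0.02). RPL34 fell from 704 CPM to 308 and 296, and RPS28 from 122 to 58.4 and 58.9. The 1 higher member, RPL21, is named after its values were seen and had 22.4 CPM and 31.6 and 31.4 in ZIP. Together the cytosolic ribosomal protein genes took 8.46% of counts in untransduced cells, 6.21% and 6.22% in SCR, and 5.27% and 5.12% in ZIP. These genes have many processed pseudogenes, and how shared reads were counted is not given. The small RNA host genes SNHG6, SNHG7 and SNHG12 fell from 224 CPM to 110 and 105, from 132 to 65.1 and 65.1, and from 79.2 to 36.9 and 35.2.

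Ribosome biogenesis genes, by contrast with the ribosomal proteins, were more often higher, 17 of 29, with 8 lower and a median of 0.15. POLR1A, the largest subunit of RNA polymerase I, rose from 73.4 CPM to 205 and 200 (1.46 ± 0.04), with 133 and 138 in SCR. UTP20, a processing factor of the small subunit, rose from 70.8 CPM to 150 and 149. FBL, the methyltransferase fibrillarin, and POLR1C fell, from 653 CPM to 406 and 404 and from 66.1 CPM to 41.3 and 41.1. With the length adjustment 20 were higher and 4 lower, and DESeq2 also called 4 lower. Among 14 genes of MYC and its targets 3 were higher and 10 lower (median -0.21), or 3 and 7 with the length adjustment (median -0.16). CCND2, a cyclin, fell from 91.9 CPM to 43.8 and 46.5, while CAD, an enzyme of pyrimidine synthesis, rose from 230 CPM to 357 and 358.

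The mRNAs made in mitochondria were lower by a little, 11 of 13, with 1 higher and a median of -0.31, but this did not hold with the length adjustment, where 6 were higher and 6 lower and the median was 0.05. Without ZIP 2, SCR 1 or SCR 2, 2 were higher. MT-CO3, a subunit of cytochrome oxidase, fell from 11122 CPM to 6356 and 6297 (-0.81 ± 0.01), or by 0.44 on the log2 scale with the adjustment, and SCR stood at 4567 and 4658. All mitochondrial genes together took 8.05% of counts in untransduced cells, 4.4% and 4.58% in SCR, and 6% and 6.07% in ZIP. Among 42 nuclear-encoded respiratory chain subunits 29 were lower and 2 higher (median -0.24), or 19 lower and 11 higher with the adjustment (median -0.06). NDUFS1, a subunit of complex I, was 1 of the 2 and rose from 94.7 CPM to 142 and 144.

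Cell cycle genes moved modestly and in both directions. Of 31 mitosis genes 18 were higher and 7 lower (median 0.24), or 22 and 2 with the length adjustment. CENPF, a kinetochore protein, rose from 169 CPM to 409 and 429 (1.31 ± 0.04), with 401 and 405 in SCR, and TOP2A, which untangles chromosomes, from 445 to 657 and 665. Of 30 replication genes 8 were higher and 16 lower (median -0.14), where 28.5% of all genes tested were higher and 29.7% lower. DESeq2 called 5 replication genes higher. GINS2, a part of the replicative helicase, fell from 43.7 CPM to 25 and 24.7 (-0.81 ± 0.07). CDKN1B, which encodes the inhibitor p27, fell from 59.6 CPM to 40.1 and 41, and CCNG2, a cyclin linked to arrest, from 13.5 CPM to 4.9 and 4.17, while SCR stood at 20.4 and 19.2.

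HL60 cells lack p53, and 22 genes known as p53 targets were read beside that background. Of these 10 were higher and 5 lower (median 0.21), where 28.5% of all genes tested were higher and 29.7% lower. DESeq2 called 2 of the p53 targets lower. PMAIP1, the BH3-only protein NOXA, rose from 32.7 CPM to 67.6 and 69.3 (1.07 ± 0.05), with 172 and 171 in SCR. SESN2, a stress-induced inhibitor of mTORC1, rose from 5.84 CPM to 15.1 and 11.9, with 56.3 and 55.1 in SCR, and TIGAR, a sugar phosphatase, from 3.25 CPM to 8.33 and 8.27. DDB2, a DNA repair factor, fell from 31.4 CPM to 17.8 and 18.2. In the ATF4 stress response 13 of 27 genes were higher and 10 lower (median 0.08). CHAC1, which degrades glutathione, fell from 3.17 CPM to 1.04 and 0.827, and ALDH1L2, a mitochondrial folate enzyme, rose from 2 CPM to 7.74 and 7.32.

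Antioxidant genes rose while the gene of their regulator fell. NFE2L2, which encodes NRF2, fell from 105 CPM to 42.1 and 40.9 (-1.34 ± 0.04), with 86.7 and 87 in SCR. Of 19 genes of the NRF2 and thiol antioxidant list 13 were higher and 2 lower (median 0.29). GCLM, the regulatory subunit of glutathione synthesis, rose from 29.6 CPM to 65 and 72.7, above the 33.9 and 31.2 of SCR. NQO1, a quinone reductase, rose from 5.96 CPM to 14.1 and 15.2, and SLC7A11, the cystine transporter, from 19.3 CPM to 40.2 and 41.4. NRF2 is regulated largely at the protein level, which these data do not measure.

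Integrin genes were more often higher than lower. Of 12 leukocyte integrin chains tested 8 rose and 0 fell (median 0.70), although with the length adjustment 1 fell. ITGA4, the alpha chain of VLA-4, rose from 251 CPM to 449 and 436 (0.82 ± 0.03), with 428 and 441 in SCR. ITGB2, the shared beta chain of leukocyte integrins, rose from 175 CPM to 295 and 291, with 739 and 741 in SCR, and ITGB7 from 7.09 CPM to 24 and 21.6. Of 16 matrix metalloproteinases and inhibitors 7 were higher and 4 lower (median 0.32), where 28.5% of all genes tested were higher and 29.7% lower. MMP2, gelatinase A, had 22.8 CPM in untransduced cells, 16.2 and 16.4 in SCR, and 113 and 114 in ZIP (2.31 ± 0.06, edgeR adjusted p = 1.7e-19). Only the ZIP libraries were high. MMP14, the membrane protease that activates it, rose from 1.54 CPM to 8.26 and 8.84 and was at 55.4 and 55 in SCR. TIMP3, an inhibitor of these proteases, fell from 0.584 CPM to 0 and 0.0827, both under the 3-count level.

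Growth factor axes held further genes in which ZIP was the highest group. IGFBP2, which binds insulin-like growth factors, had 7.09 CPM in untransduced cells, 2.09 and 1.67 in SCR, and 21.1 and 20.5 in ZIP (1.55 ± 0.11). Among 11 tested genes of that axis 9 were higher and 1 lower (median 0.61), or 7 and 3 with the length adjustment, and 0 were lower with DESeq2 or without ZIP 1. In TGF-beta, activin and BMP signalling 11 of 25 were higher and 2 lower, with a median of 0.54, or 0.32 with genes at 0 counts set to their bound. BMPR2, a BMP receptor, rose from 2.13 CPM to 19.9 and 17.8 (3.15 ± 0.16), and SKIL, a SMAD corepressor, from 8.09 CPM to 33.3 and 32.6, above the 16.6 and 17.8 of SCR. CD38, an ectoenzyme of progenitors and activated cells, rose from 1.17 CPM to 10.9 and 11.6, above 3.39 and 3.77 in SCR.

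The series title ties the knockdown to myelodysplastic syndrome (MDS), so genes of the 5q deletion region and genes mutated in MDS were read as lists. Of 21 tested genes of the 5q region 12 were higher and 3 lower (median 0.25), or 11 and 6 with the length adjustment. RPS14, the ribosomal protein gene of that region, fell from 2273 CPM to 1230 and 1177 (-0.92 ± 0.02), with 1537 and 1564 in SCR. CTNNA1, alpha catenin, rose from 0.292 CPM to 4.54 and 5.87, with 23 and 20.6 in SCR. Of 31 genes mutated in MDS 22 were higher and 6 lower (median 0.40, or 0.15 with the adjustment). CBL, a ubiquitin ligase for receptor kinases, rose from 65.4 CPM to 173 and 169 (1.39 ± 0.04), and BCOR, a corepressor, from 70.4 CPM to 129 and 128. CEBPA, a factor of granulocyte commitment, rose from 109 CPM to 191 and 189 (0.79 ± 0.04), with 133 and 128 in SCR.

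Most markers of other lineages were under 1 CPM in all 3 libraries. Of 11 erythroid markers 9 were under 1 CPM in each, and HBA1, HBA2, HBB, HBG1 and AHSP had no count. All 14 epithelial, fibroblast and endothelial markers were under 1 CPM, and so were 4 of 5 megakaryocyte markers and 7 of 8 T and NK cell markers. Summed, the T and NK markers stood at 13 CPM in untransduced cells and 13.5 and 14.3 in ZIP. Of these markers CD3E fell, from 20 counts in untransduced cells to 2 and 0 in ZIP, with 4 and 3 in SCR. The ratio of ZIP over untransduced was 0.0437 (exact 95% interval 0.00496 to 0.18), and DESeq2 called 0 of the T and NK markers lower.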

How the data were processed

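Gene counts came from the 1 deposited table of the series. Its values are raw counts per Ensembl gene, whole numbers without normalization by the authors, read as such from the values. Bowtie2 and featureCounts are named in the submitters' processing notes, while the design text names TopHat 2, Cufflinks and HTSeq. For the table itself pipeline, build, annotation and strand use were not given in the sources used here, which leaves overlapping and antisense genes uncertain. Of 51055 gene IDs, 44305 had a symbol in GENCODE 29 (GRCh38), the source of coordinates, and 6750 had none. Columns were matched to libraries by the description label, and 0 belonged to other samples.

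Genes were kept by filterByExpr if they reached about 10 counts in any library of the series and a total of 15. Genes could thus pass through SCR alone. VCAN did so, with 529 and 545 counts in SCR, 2 in untransduced cells and 5 and 2 in ZIP. TMM factors were 0.956 for the untransduced library, 1.03 for both SCR libraries, and 0.99 and 0.991 for ZIP. Genes were tested in R 4.3.3 with the edgeR 4.0.16 quasi-likelihood test on all 5 libraries, with Benjamini-Hochberg adjustment over all 15832 genes tested and a threshold of 0.05. The fit had 2 residual degrees of freedom and a biological coefficient of variation of 0.0245. Its spread came from the SCR pair and the ZIP pair. CPM used the scaled library sizes, so levels compare libraries and not genes of different length. Sites and motifs were searched by exact match. The 3′ UTR was that of the longest coding transcript of the GENCODE 29 basic set. Alternatives were other scaling factors, other filters, DESeq2 1.42.0, 3 libraries only, each replicate left out and, added after seeing the data, an offset for summed exon length. The procedure was tested on simulated data.

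Named genes were MIR378A and PPARGC1B, the 15 largest rises and falls among protein-coding genes of at least 5 CPM in the higher group, the 8 largest rises and falls in CPM, up to 5 members of each list with the largest change, and lineage markers. The members and lists were chosen with earlier results of these data known.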

Additional observations from a re-analysis of the deposited data

How the results depend on the processing

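No paired analysis was possible because the untransduced group has 1 library and so shares fewer than 2 replicate numbers with ZIP. With DESeq2 2851 genes were lower, 908 were higher at 2-fold and 417 lower at 2-fold, and 31.6% of genes with an 8-base site were higher. The cause was not tested. With the exon length adjustment that share was 37.5%. Shares for genes without a site were not taken under these settings. Leaving out 1 of the 4 SCR and ZIP libraries at a time gave 4147 to 4558 genes higher and 4242 to 4611 lower, 1276 to 1371 and 752 to 793 at 2-fold, and a site share of 41.5 to 44%. The untransduced library could not be left out. With library totals 5018 genes were higher and 4208 lower. Named genes without a result or an adjusted p in a run were left out of the tally for that run. Of the rest 0 changed direction under any alternative run. With DESeq2 253 had the same call and 23 lost it. With the length adjustment 276 had the same call and 8 lost it. Some also lost their call without ZIP 1 or without ZIP 2. Of 118 counts of list members higher or lower, 17 moved by more than 1.5 times with DESeq2 and 17 with the length adjustment, and 1 to 4 under each other alternative run. Genes near 3 counts cannot be told from absent at these depths.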
